A study of Mus musculus with 10 samples.

Results

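Mesenchymal stromal cells (MSC) of the bone marrow grow attached to plastic, look like fibroblasts, give rise to bone, cartilage and fat cells, and secrete factors on which blood stem cells depend. They lay down collagens and other matrix proteins of the marrow. The genes described here are those for which the preparations MSC I and MSC IV lay on the same side of all the other preparations, MSC II, MSC III and MSC V. Members were chosen by the measured mean level of each preparation, for 1 probe set per gene, so the levels that chose the genes are given as a description with no test. Of 19938 named genes, 3404 met the rule: 1778 had both MSC I and MSC IV above the others (8.92%) and 1626 had both below (8.16%).

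All 5 preparations came from female C57BL/6J mice aged 6 to 8 weeks, were grown in the same supplemented stromal medium with antibiotics and were used at passage 16 to 17. No treatment, allele or transgene separated them, and none was named as a control. The 4 arrays of MSC I and IV (2 each) were set against the 6 arrays of MSC II, III and V (2 each), all hybridised with biotin-labelled total RNA. The labels do not say whether replicates were separate cultures, so errors and p-values measure the spread between arrays, which may be technical. A preparation is 1 bulk culture, in which fewer cells of a type and less RNA per cell cannot be told apart. Array medians lay between 6.45 and 6.63 log2. Of 11 measured genes that define stromal cells, 8 were above the low-value level of 6.55 log2 on all arrays, among them Pdgfrb, Itgb1, Col1a1 and Cd44. Thy1 passed that level on 3 arrays, and Eng, the surface marker endoglin, on the 2 arrays of MSC IV. Of 20 measured genes that define blood, endothelial, neural, epithelial or muscle cells, 18 were below it on all 10 arrays, including Ptprc, Pecam1 and Epcam. The exceptions were the lysosomal protein Cd68 (6.40 to 7.03 log2 in MSC I and IV, against 6.60 to 8.55 in MSC II, III and V) and the platelet integrin gene Itga2b (6.24 to 7.11, against 6.52 to 7.27). The Y chromosome genes Kdm5d, Uty and Eif2s3y were under the level on all arrays of these female cells.

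For most members the nearest preparation means of the groups lay close together. Genes were tested where at least 2 arrays passed the low-value level, which kept 10971 genes and 1821 members. Of these members, 807 were higher (7.36% of the tested genes) and 1014 lower (9.24%). This split depended on the scaling, with 624 higher and 1278 lower members when arrays were centred on their medians and 664 and 1203 after a further quantile normalization. The other 971 higher and 612 lower members stayed under the level on all but at most 1 array. The gap, meaning the distance between the nearest preparation means of the groups, had a median of 0.11 log2 for the higher and 0.15 log2 for the lower members. At the edge of the rule, the kinase Clk3 was inside narrowly (10.75 in MSC I and 10.67 in MSC IV, against at most 10.67 in the others). The myristoyltransferase Nmt1 was just outside (11.99 in MSC I and 11.81 in MSC IV, against at most 11.81). On the other side the nuclease Dnase2a was inside (8.90 in MSC I and 8.75 in MSC IV, against at least 8.90), and Farsa, a subunit of phenylalanyl-tRNA synthetase, was just outside (10.20 in MSC I and 10.48 in MSC IV, against at least 10.48).

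A gap of at least 0.5 log2 was found for 57 higher (0.52% of tested genes) and 145 lower members (1.32%). A gap of at least 1 log2, which is a fold of 2, was found for 16 (0.146%) and 50 members (0.456%). The higher count was 26 without MSC IV replicate 1. With arrays centred on their medians these counts were 15 and 56. Every array of MSC I and IV lay outside the range of the other 6 for 14 of the 16 and for 48 of the 50 (2.03% and 3.0% of all tested genes, at any gap). Of the same genes, 7 higher and 20 lower ones passed the low-value filter through their high group alone and could only differ in that direction. Below the filter, the rule with a gap of at least 0.5 log2 also held for Scube3 (higher) and Galnt17 (lower).

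**Figure D1:**
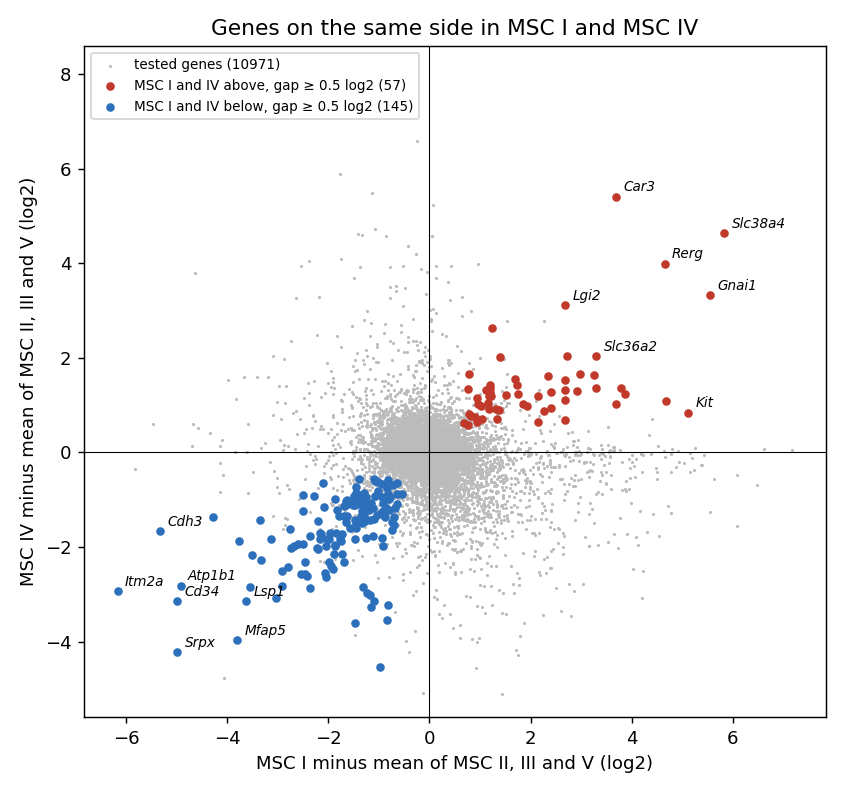
Difference of MSC IV (vertical axis) and of MSC I (horizontal axis) from the mean of MSC II, III and V, in log2, for the 10971 tested genes (grey). Coloured points are members with a gap of at least 0.5 log2, 57 above (red) and 145 below (blue); Kit, in MSC I, and Cdh3 and Itm2a lie far from the diagonal, where MSC I and MSC IV are equally far from the others.

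Promoter sequence is shown for 4 members with wide gaps, because the members were chosen for moving together. The 250 bases before the RefSeq transcription start (build GRCm38.p6) came from genes with 1 listed start. They were Gnai1, an inhibitory G protein subunit, at chr5:18360414-18360663 (minus strand) and Lgi2, a secreted protein, at chr5:52566307-52566556 (minus strand) from the higher side, and Srpx, also secreted, at chrX:10117641-10117890 (minus strand) and Cd34, a surface sialomucin, at chr1:194938571-194938820 (plus strand) from the lower side. Capitals mark matches, on either strand, to the motifs searched: CCAAT, the TATA box TATAAA, the E-box CACGTG, the AP-1 motif TGANTCA, the TEAD motif GGAATG, the SP1 motif GGGCGG and the CArG box of serum response factor.
Gnai1: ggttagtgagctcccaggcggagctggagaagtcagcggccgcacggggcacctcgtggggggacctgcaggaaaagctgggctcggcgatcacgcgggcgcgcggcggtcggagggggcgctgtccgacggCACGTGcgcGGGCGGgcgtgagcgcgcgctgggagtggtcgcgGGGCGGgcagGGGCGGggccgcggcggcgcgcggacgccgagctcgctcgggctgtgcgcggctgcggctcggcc
Lgi2: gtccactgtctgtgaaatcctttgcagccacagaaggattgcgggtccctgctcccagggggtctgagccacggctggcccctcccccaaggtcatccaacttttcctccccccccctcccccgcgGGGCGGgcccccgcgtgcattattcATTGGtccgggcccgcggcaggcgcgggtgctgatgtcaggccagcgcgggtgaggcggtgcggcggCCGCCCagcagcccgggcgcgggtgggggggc
Srpx: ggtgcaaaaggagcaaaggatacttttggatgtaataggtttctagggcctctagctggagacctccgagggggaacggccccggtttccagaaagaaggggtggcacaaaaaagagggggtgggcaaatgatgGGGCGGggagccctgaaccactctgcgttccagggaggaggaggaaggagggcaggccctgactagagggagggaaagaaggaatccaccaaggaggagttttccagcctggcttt
Cd34: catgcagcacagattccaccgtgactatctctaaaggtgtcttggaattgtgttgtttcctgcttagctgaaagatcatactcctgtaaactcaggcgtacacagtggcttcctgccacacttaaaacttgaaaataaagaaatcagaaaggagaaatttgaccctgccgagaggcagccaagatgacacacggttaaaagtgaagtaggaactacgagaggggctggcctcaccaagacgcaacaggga
Gnai1 held an E-box and 3 SP1 motifs, Lgi2 a CCAAT motif in reverse and 2 SP1 motifs, Srpx 1 SP1 motif, and Cd34 none of the letters searched.

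The genes with the widest gaps on the higher side encoded a small GTPase, a metabolic enzyme and an amino acid transporter. Rerg, a Ras-related GTPase that restrains growth in human breast cancer cells, had 11.58 and 10.66 log2 on the MSC I arrays and 9.75 and 11.18 on the MSC IV arrays, against 6.02 to 7.09 (median 6.46) on the arrays of MSC II, III and V. Car3, the cytosolic carbonic anhydrase III known as an abundant protein of adipocytes and skeletal muscle, had 9.30 and 8.37 in MSC I and 9.25 and 11.86 in MSC IV, against 4.78 to 5.51 (median 5.16) in MSC II, III and V. Slc38a4, a sodium-coupled carrier of neutral amino acids that is imprinted in mouse placenta, had 12.01 and 11.92 in MSC I and 10.76 and 10.78 in MSC IV, against 5.29 to 7.42 (median 5.79) in MSC II, III and V. No array of MSC I or IV overlapped the others for these genes, although the MSC IV arrays stood far apart for Car3 and close together for Slc38a4. The differences, taken as the mean of MSC I and IV minus the mean of MSC II, III and V with the SE of the limma fit, were 4.32 ± 0.32, 4.55 ± 0.49 and 5.24 ± 0.15 log2. The levels of MSC II, III and V lay near or under the low-value level, where RMA, the normalisation the authors used, compresses differences.

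Signalling proteins among the higher members are described next. Gnai1, the inhibitory G protein subunit that lowers cyclic AMP, had 10.80 and 11.21 in MSC I and 8.58 and 8.97 in MSC IV, against 5.05 to 5.82 (median 5.52) in MSC II, III and V. MSC I was the higher of the pair on both arrays, and the difference from the others was 4.44 ± 0.19 log2. Chn2, the Rac-inactivating protein beta-chimaerin, had 7.20 and 8.42 in MSC I and 6.95 and 6.41 in MSC IV, against 5.15 to 5.56 (median 5.48) in MSC II, III and V. Lifr, the receptor chain for leukaemia inhibitory factor, had 11.32 and 10.32 in MSC I and 11.76 and 11.11 in MSC IV, against 8.77 to 9.90 (median 9.59) in MSC II, III and V, so that it was well expressed in every preparation. Its difference was 1.71 ± 0.34 log2. Tgfb1, the growth factor TGF-beta 1, averaged (mean ± SD, n = 2 arrays each, here and below, with no overlap between the groups' arrays unless stated) 11.02 ± 0.60 in MSC I and 11.08 ± 0.39 in MSC IV, against 9.68 ± 0.49, 10.13 ± 0.26 and 10.36 ± 0.02 in MSC II, III and V. Kit, the stem cell factor receptor, averaged 10.34 ± 0.25 in MSC I and 6.06 ± 0.86 in MSC IV, against 5.14 ± 0.28, 5.32 ± 0.22 and 5.21 ± 0.12 in MSC II, III and V. The Kit mean of MSC IV was under the low-value level, and its replicate 1 array lay within the range of the other preparations.

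Other higher members encode surface and secreted proteins. Lgi2, a secreted leucine-rich repeat protein, had 9.58 and 9.60 in MSC I and 9.57 and 10.46 in MSC IV, against 5.90 to 8.15 (median 6.96) in MSC II, III and V. Ildr2, a membrane protein of the immunoglobulin family, had 8.12 and 8.35 in MSC I and 7.94 and 8.23 in MSC IV, against 6.28 to 6.83 (median 6.53) in MSC II, III and V, and MSC I and IV were nearly level. Gpnmb, a lysosomal and surface glycoprotein of bone-forming and phagocytic cells, had 12.27 and 12.27 in MSC I and 11.58 and 11.59 in MSC IV, against 7.55 to 11.35 (median 9.77) in MSC II, III and V. Its arrays in MSC II were far below all others. Rtn4rl1, a relative of the Nogo receptor, averaged 8.71 ± 0.58 in MSC I and 7.34 ± 0.50 in MSC IV, against 6.25 ± 0.42, 6.02 ± 0.10 and 5.80 ± 0.44 in MSC II, III and V. The guidance protein Sema6d averaged 9.84 ± 0.36 in MSC I and 7.42 ± 0.74 in MSC IV, against 5.59 ± 0.28, 6.27 ± 0.15 and 6.31 ± 0.98 in MSC II, III and V, and the replicate 2 array of MSC IV lay below the highest array of MSC V. The secreted metalloproteases Adamts9 (12.00 ± 1.22 in MSC I and 10.87 ± 0.86 in MSC IV, against 9.80 ± 0.88, 9.62 ± 0.39 and 8.55 ± 0.80 in MSC II, III and V) and Adamts12 (10.09 ± 0.59 in MSC I and 9.26 ± 0.39 in MSC IV, against 8.56 ± 0.44, 8.04 ± 0.023 and 8.09 ± 0.27 in MSC II, III and V) were also higher. Adamts9 overlapped, its lowest MSC IV array lying under the highest array of MSC II, and Adamts12 did not.

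Genes of metabolism and transport were the next higher members described. Slc36a2, a proton-coupled carrier of small amino acids, had 9.25 and 7.60 in MSC I and 5.69 and 8.64 in MSC IV, against 4.71 to 5.38 (median 5.23) in MSC II, III and V. The replicate 1 array of MSC IV was thus under the low-value level, and the other 3 arrays of MSC I and IV were above it. Pnpla2, the triglyceride lipase that starts fat breakdown, averaged 11.01 ± 0.086 in MSC I and 9.49 ± 0.44 in MSC IV, against 8.85 ± 0.37, 8.85 ± 0.18 and 8.88 ± 0.025 in MSC II, III and V. Adhfe1, an iron-dependent alcohol dehydrogenase of mitochondria, averaged 10.28 ± 0.053 in MSC I and 8.66 ± 0.69 in MSC IV, against 7.75 ± 0.48, 6.96 ± 0.21 and 6.35 ± 1.01 in MSC II, III and V. Klf9, a zinc finger transcription factor induced by glucocorticoids, averaged 10.72 ± 0.12 in MSC I and 10.20 ± 0.63 in MSC IV, against 8.63 ± 0.44, 9.02 ± 0.46 and 9.26 ± 0.16 in MSC II, III and V. Further members taken by the same size rule were the cytoskeletal protein Add3 (1.98 ± 0.15 log2), the sialyltransferase St3gal1 (1.58 ± 0.36), Pdzd2 (1.94 ± 0.37), Afap1l2 (2.11 ± 0.24), Lhfpl2 (1.37 ± 0.20), Echdc3 (1.12 ± 0.14) and Tmtc1 (1.67 ± 0.14). With the mean of its probe sets the St3gal1 difference was 0.81, and its further probe set averaged 5.37 to 5.54 log2 in the preparations, under the low-value level.

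Among the lower members, those that encode matrix proteins are described first. Srpx, a secreted sushi-repeat protein encoded on the X chromosome, had 5.40 and 4.43 in MSC I and 5.96 and 5.39 in MSC IV, against 8.83 to 10.79 (median 9.84) in MSC II, III and V. Mfap5, a glycoprotein of the elastin-associated microfibrils, had 5.84 and 5.91 in MSC I and 5.93 and 5.48 in MSC IV, against 8.49 to 10.77 (median 10.02) in MSC II, III and V. All arrays of MSC I and IV were under the low-value level, and all others were above it. Fbn2, the microfibril protein fibrillin 2, had 6.95 and 6.99 in MSC I and 9.36 and 7.26 in MSC IV, against 9.77 to 11.83 (median 10.31) in MSC II, III and V, with 1 MSC IV array close to the lowest of the others. The differences were -4.60 ± 0.31, -3.89 ± 0.14 and -2.84 ± 0.42 log2. Aspn, the small proteoglycan asporin, averaged 6.32 ± 1.22 in MSC I and 6.91 ± 1.20 in MSC IV, against 9.22 ± 0.81, 8.50 ± 1.12 and 8.34 ± 0.49 in MSC II, III and V, and 1 MSC IV array lay above the lowest MSC III array. Lum, the collagen-binding proteoglycan lumican, averaged 4.98 ± 0.98 in MSC I and 5.53 ± 0.71 in MSC IV, against 6.65 ± 0.61, 6.52 ± 0.66 and 6.08 ± 0.41 in MSC II, III and V, and its groups overlapped through 1 MSC IV array. Mmp2, the gelatinase of stromal cells, was high everywhere and averaged 11.48 ± 0.50 in MSC I and 11.80 ± 0.11 in MSC IV, against 12.80 ± 0.19, 12.76 ± 0.022 and 12.83 ± 0.18 in MSC II, III and V.

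Lower members that encode surface proteins come next. Cd34, the sialomucin of blood stem cells, endothelium and some stromal progenitors, had 5.69 and 4.96 in MSC I and 7.60 and 6.76 in MSC IV, against 9.62 to 11.62 (median 10.09) in MSC II, III and V. Its difference was -4.07 ± 0.38 log2, with MSC IV between MSC I and the others. The endothelial marker Pecam1 lay between 4.84 and 4.94 log2 in MSC I and IV and between 4.82 and 5.05 in MSC II, III and V, under the low-value level. Atp1b1, the beta subunit of the sodium pump, had 5.80 and 5.50 in MSC I and 8.34 and 7.15 in MSC IV, against 9.95 to 11.49 (median 10.47) in MSC II, III and V. Itgb8, an integrin chain that activates latent TGF-beta, had 5.59 and 5.82 in MSC I and 5.66 and 6.17 in MSC IV, against 7.67 to 8.34 (median 7.85) in MSC II, III and V. Flrt2, a membrane protein of cell adhesion and axon guidance, averaged 4.95 ± 0.37 in MSC I and 6.00 ± 0.43 in MSC IV, against 7.92 ± 0.70, 8.74 ± 0.75 and 8.20 ± 0.65 in MSC II, III and V. The adhesion genes Cdh3 (P-cadherin, -3.50 ± 0.14 log2) and Pcdh19 (a protocadherin, -2.55 ± 0.15) and the ephrin Efnb2 (-2.34 ± 0.25) were also lower. Pdpn, the stromal mucin podoplanin, averaged 9.61 ± 0.35 in MSC I and 10.02 ± 0.53 in MSC IV, against 11.16 ± 0.19, 11.21 ± 0.0026 and 11.01 ± 0.37 in MSC II, III and V, and was picked for mention after its values were seen.

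**Figure D2:**
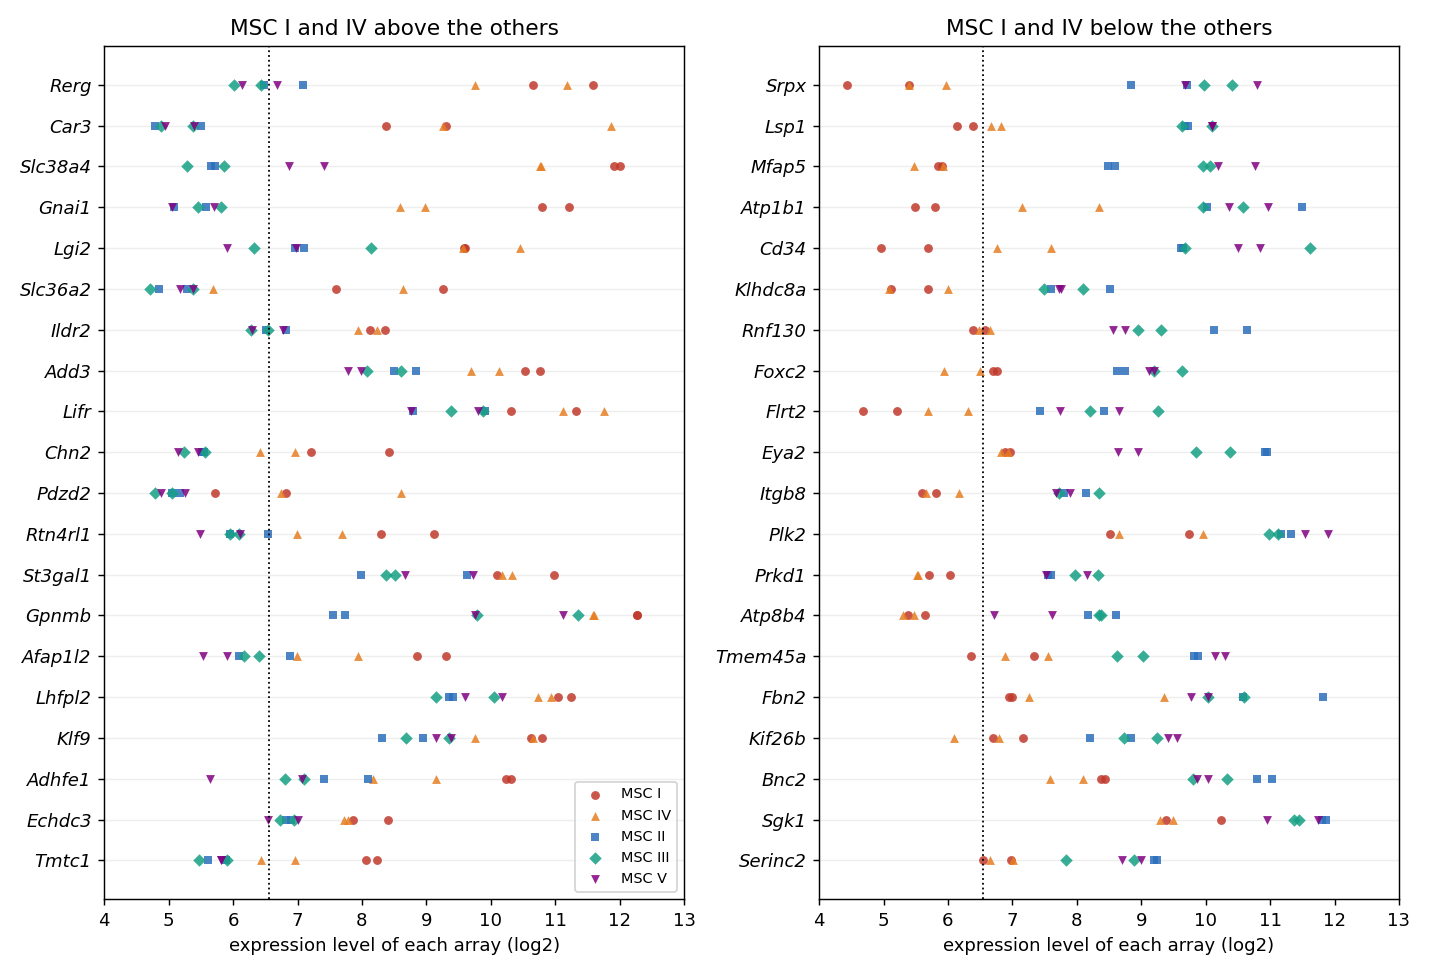
Expression level of each array in log2 (horizontal axis) for the 20 higher (left) and 20 lower (right) members with the widest gaps among those whose arrays did not overlap. Each point is 1 array, 2 per preparation, and the dotted line is the low-value level of 6.55; the MSC I and IV points stand on one side of all others in each row, as the choice of genes requires.

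The following lower members are transcription factors and developmental regulators, while the factors Klf9 and Klf15 lay on the higher side. Of 24 tested positional factors outside the Hox clusters, 1 was a higher and 3 were lower members (median difference -0.15 log2). Foxc2, a forkhead factor of mesenchyme and lymphatic vessels, had 6.70 and 6.77 in MSC I and 6.49 and 5.93 in MSC IV, against 8.62 to 9.63 (median 9.16) in MSC II, III and V. Eya2, a phosphatase and transcriptional coactivator of eye and muscle development, had 6.96 and 6.88 in MSC I and 6.93 and 6.82 in MSC IV, against 8.65 to 10.95 (median 10.11) in MSC II, III and V. The MSC I and IV arrays of Eya2 lay close together, while the others were widely spread. Bnc2, a zinc finger protein of mesenchymal cells, averaged 8.40 ± 0.045 in MSC I and 7.84 ± 0.36 in MSC IV, against 10.91 ± 0.16, 10.07 ± 0.37 and 9.95 ± 0.13 in MSC II, III and V. Sox9, the master factor of cartilage, averaged 7.62 ± 0.24 in MSC I and 8.39 ± 0.41 in MSC IV, against 9.43 ± 0.30, 9.37 ± 0.42 and 10.71 ± 0.07 in MSC II, III and V. Lhx9, a LIM homeobox factor of the limb bud and gonad, averaged 5.59 ± 0.14 in MSC I and 5.88 ± 0.19 in MSC IV, against 8.15 ± 0.79, 6.90 ± 0.067 and 6.63 ± 0.39 in MSC II, III and V. The differences of these genes were -2.61 ± 0.14, -3.05 ± 0.12, -2.19 ± 0.14, -1.83 ± 0.18 and -1.49 ± 0.22 log2.

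Signalling genes on this side covered ligands, kinases and their partners. Hbegf, a ligand of the EGF receptor, averaged 7.27 ± 1.27 in MSC I and 6.91 ± 0.19 in MSC IV, against 8.49 ± 0.32, 8.91 ± 0.26 and 8.81 ± 0.89 in MSC II, III and V. Nrg1, the ErbB ligand neuregulin 1, averaged 8.30 ± 0.49 in MSC I and 6.76 ± 0.61 in MSC IV, against 10.21 ± 0.085, 9.39 ± 0.45 and 9.23 ± 0.41 in MSC II, III and V. Pappa, the protease that frees insulin-like growth factors from their binding proteins, averaged 5.64 ± 0.68 in MSC I and 6.34 ± 0.29 in MSC IV, against 8.43 ± 0.67, 8.82 ± 0.56 and 7.70 ± 0.28 in MSC II, III and V. The secreted Wnt modulators Sfrp2 (-1.41 ± 0.20 log2) and Dkk3 (-2.22 ± 0.20) were lower, whereas the Wnt inhibitors Frzb, which is secreted and whose arrays overlapped (2.36 ± 0.40), and Nkd1, which is intracellular (1.67 ± 0.19), were higher. Plk2, a stress-responsive polo-like kinase, had 8.51 and 9.74 in MSC I and 9.96 and 8.65 in MSC IV, against 10.98 to 11.90 (median 11.25) in MSC II, III and V. The other kinases were Sgk1, induced by serum and glucocorticoids (-1.93 ± 0.20 log2), and Prkd1, protein kinase D1 (-2.16 ± 0.15). Chn1, alpha-chimaerin, averaged 5.42 ± 0.25 in MSC I and 6.74 ± 0.34 in MSC IV, against 7.99 ± 0.39, 8.16 ± 0.28 and 9.52 ± 0.02 in MSC II, III and V, so that the paralogs Chn1 and Chn2 lay on opposite sides. Other secreted factors with a gap of at least 1 log2, picked after their values were seen, were pleiotrophin, Ptn (-2.72 ± 0.54 log2), the ligand of the CSF1 receptor Il34 (-1.92 ± 0.15) and the opioid precursor Penk (-3.20 ± 0.72). Penk overlapped between the groups, with 6.64 and 4.36 in MSC I and 7.24 and 5.20 in MSC IV, against a lowest array of 7.0 in MSC II, III and V.

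The 20 lower members with the widest gaps also included genes outside these groups. Lsp1, an actin-binding protein of leukocytes and other motile cells, had 6.39 and 6.14 in MSC I and 6.82 and 6.66 in MSC IV, against 9.63 to 10.10 (median 9.91) in MSC II, III and V. The leukocyte marker Ptprc lay between 5.11 and 5.22 log2 in MSC I and IV and between 5.13 and 5.25 in MSC II, III and V, under the low-value level. The Lsp1 arrays of each group lay close together beside the difference of -3.38 ± 0.11 log2. Rnf130, a ubiquitin ligase, averaged 6.48 ± 0.13 in MSC I and 6.57 ± 0.12 in MSC IV, against 10.39 ± 0.36, 9.13 ± 0.25 and 8.65 ± 0.14 in MSC II, III and V. Klhdc8a (-2.39 ± 0.26 log2), the flippase Atp8b4 (-2.52 ± 0.19), Tmem45a (-2.60 ± 0.22), the kinesin Kif26b (-2.31 ± 0.20) and Serinc2 (-2.02 ± 0.21) were the remaining members of that set. Cacna1g, a low-voltage-activated calcium channel, averaged 5.88 ± 0.60 in MSC I and 6.46 ± 0.56 in MSC IV, against 9.09 ± 1.22, 8.37 ± 0.23 and 7.69 ± 0.17 in MSC II, III and V.

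Counts by gene list were read against all tested genes, of which 7.36% were higher and 9.24% lower members, with a median difference of -0.01 log2. The limma contrast of MSC I and IV minus MSC II, III and V uses the values that chose the members, so its counts are given as background and nothing is read from them. At an adjusted p under 0.05 and at least 1 log2 it gave 666 calls (6.07%), of which 328 were higher (2.99%) and 338 lower (3.08%). With the preparation as a random block it gave 7, from the same values, so these calls too are background and no support for the members. They were Slc38a4, Gnai1, Lsp1, Mfap5, Foxc2, the cytidine deaminase Cda and the monocarboxylate carrier Slc16a7. In that fit 581 of 10971 tested genes had an unadjusted p under 0.05, near the share that this cutoff gives by chance. Matrix glycoproteins and proteoglycans had 11 lower and 0 higher members among 40 tested genes, with a median difference of -0.60 log2. Besides those above, they were Lama2, a laminin chain (-2.25), Tgfbi (-1.67), Ltbp1, which stores latent TGF-beta (-1.26), Fbln5 (-1.22), Matn2 (-1.02), Emilin1 (-0.57) and Fn1, fibronectin (-0.20). Collagen chains had 2 lower and 1 higher members of 17, with Col8a2 at -1.23. Matrix proteases and inhibitors had 4 lower and 2 higher members of 26.

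The smooth muscle contractile list had 0 higher and 5 lower members of 15 (median difference -0.20 log2). The members were calponin 1, Cnn1 (-2.10), Smtn, smoothelin (-1.30), the gamma smooth muscle actin Actg2 (-2.23), Tpm2, a tropomyosin (-1.14), and Cnn2 (-0.20). The Actg2 difference came mainly from MSC IV, with means of 12.64 in MSC I and 9.10 in MSC IV, against 13.15, 13.32 and 12.82 in MSC II, III and V. In limma 8 of the 15 genes differed between MSC I and MSC IV, against 20.3% of all tested genes. Their list's median MSC I minus MSC IV was 0.70 log2. The glycolysis and hypoxia list had 0 higher and 6 lower members of 22 (median difference -0.36 log2). Its members were mostly small in size, from Pfkl, the liver-type phosphofructokinase (-0.95), and the prolyl hydroxylase P4ha2 (-0.64) to the lactate dehydrogenase Ldha (-0.14). The integrin list had 0 higher and 4 lower members of 15 (median difference -0.01 log2). They were Itgb8, Itgb5 (-0.54), Itga5 (-0.53) and Itgbl1 (-1.54), an integrin-like protein that is no integrin chain. EGF, neuregulin and HGF genes had 0 higher and 3 lower members of 13 (median difference -0.50 log2). They included Erbb4, a neuregulin receptor (-1.53), beside the ligands Hbegf and Nrg1. The insulin-like growth factor system had 0 higher and 3 lower members of 14 (median difference -0.37 log2), namely Pappa and the binding proteins Igfbp6 (-1.49) and Igfbp2 (-1.02).

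Semaphorin, ephrin and Slit guidance genes had 2 higher and 6 lower members of 34 (median difference -0.15 log2). The secreted semaphorins Sema3a (-1.20), Sema3e (-1.89) and Sema3f (-1.42) were lower, and the membrane semaphorin Sema6d and the receptor Plxnb1 (1.02) were higher. Adipocyte genes had 4 higher and 0 lower members of 20 (median difference 0.95 log2). In limma 13 of the 20 differed between MSC I and MSC IV, against 20.3% of all tested genes. The list's median MSC I minus MSC IV was 2.12 log2, so its median difference was not shared evenly by the pair. Besides Pnpla2 the higher members were the lipid droplet proteins Cidec (1.88) and Plin1 (1.63) and the transcription factor Klf15 (0.94). For Cidec and Plin1 the gap was 0.06 and 0.04 log2, so that the MSC IV means stood barely above the highest of the others. Oxidative phosphorylation had 4 higher and 1 lower members of 23 (median difference 0.02 log2), among them the coactivator Ppargc1a (0.82). NRF2 targets and antioxidant enzymes had 4 higher and 0 lower members of 26 (median difference 0.03 log2). Mitosis and spindle genes had 0 higher and 0 lower members of 29 (median difference -0.14 log2), and class I antigen presentation had 0 higher and 0 lower members of 10 (median difference 0.44 log2). The interferon response list had 2 higher and 0 lower members of 26 (median difference 1.46 log2). Those 2, Xaf1 and Oas1a, differed between MSC I and MSC IV by 2.00 and 2.68 log2 (MSC I minus MSC IV). In limma 25 of the 26 interferon genes differed between the pair, with a median MSC I minus MSC IV of 3.51 log2. So did 9 of the 10 antigen presentation genes (median 1.67) and 25 of the 29 mitosis genes (median 2.16). The median differences of these lists thus do not describe MSC I and MSC IV alike. The same limit holds for matrix glycoproteins and proteoglycans, with 21 of 40 called (median MSC I minus MSC IV 0.53 log2). It also holds for EGF, neuregulin and HGF genes (8 of 13, median 1.54) and guidance genes (17 of 34, median 0.68). Fewer such calls were made for glycolysis and hypoxia (4 of 22) and oxidative phosphorylation (0 of 23).

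Housekeeping genes had 0 higher and 2 lower members of 10 (median difference -0.09 log2), the peptidyl-prolyl isomerase Ppia (-0.11) and the glycolytic enzyme Pgk1 (-0.46). The lower share of this list was 20.0%, above that of the guidance genes (17.6%). Over the other lists with at least 10 tested genes the shares ran from 0% to 18.8% for higher and from 0% to 26.7% for lower members. The counts are descriptions, and nothing particular to a list is read from them. Many list members had small gaps, and the groups' arrays overlapped for Tgfbi, Fbln5, Emilin1, Fn1, Actg2, Tpm2, Cnn2, Pfkl, P4ha2, Ldha, Itgbl1, Itgb5, Itga5, Erbb4, Igfbp6, Igfbp2, Sema3a, Sema3e, Plxnb1, Cidec, Plin1, Klf15, Ppargc1a, Oas1a and Ppia. Marker lists of other cell types were mostly under the low-value level and their mean levels overlapped between the groups, for instance 5.41 to 5.49 log2 in MSC I and IV and 5.42 to 5.77 log2 in MSC II, III and V for 21 macrophage and osteoclast markers. Their part in the results was not tested.

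**Figure D3:**
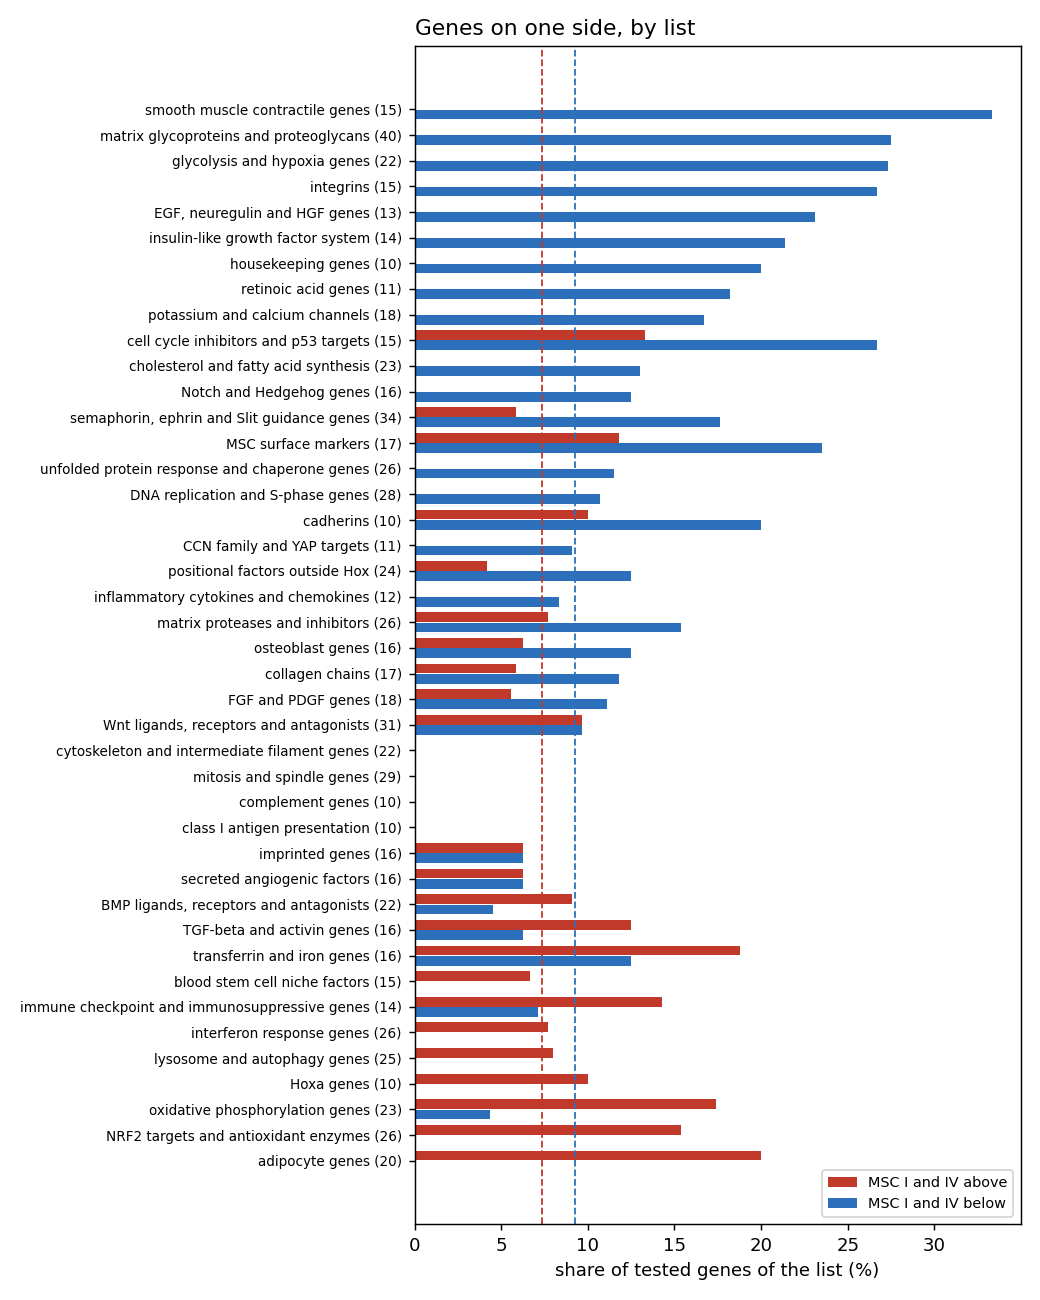
Share of the tested genes of each list that were higher (red) or lower (blue) members, in percent, for the lists with at least 10 tested genes (number in brackets). Dashed lines mark the same shares over all tested genes, 7.36% and 9.24%; smooth muscle contractile genes (33.3% lower) and matrix glycoproteins and proteoglycans (27.5% lower) stand at the top, and adipocyte genes (20.0% higher) at the bottom.

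Whether MSC I and MSC IV were equally far from the others was asked with limma's test of MSC I minus MSC IV, which does not set the side of a member. Membership sets no limit on the size of this difference, but it constrains both levels, since both must lie beyond the others. The shares are therefore not set against all genes as a finding. Of all tested genes, 2231 (20.3%) differed between the pair. Of the members with a gap of at least 1 log2, 11 of 66 differed and 55 did not pass the test, which does not show that their levels were the same. MSC I was the more extreme for all 11. Sema6d (2.43 ± 0.48, adjusted p = 0.00579), Gnai1 (2.22 ± 0.29, adjusted p = 0.000882) and Slc38a4 (1.19 ± 0.23, adjusted p = 0.00487) were higher in MSC I than in MSC IV in limma with Benjamini-Hochberg adjustment. Rtn4rl1 and Chn2 were the others on the higher side, at 1.36 ± 0.37, adjusted p = 0.0197, and 1.13 ± 0.37, adjusted p = 0.0398. On the lower side Cdh3 (-3.66 ± 0.22, adjusted p = 1.83e-05), the bone and muscle membrane protein Itm2a (-3.22 ± 0.40, adjusted p = 0.000758) and Epb41l4a (-2.92 ± 0.19, adjusted p = 2.64e-05) were lower in MSC I. So were Atp1b1 (-2.10 ± 0.55, adjusted p = 0.0168), Cd34 (-1.85 ± 0.59, adjusted p = 0.0349) and Chn1 (-1.32 ± 0.25, adjusted p = 0.0048). The Rtn4rl1 call was lost without replicate 1 of MSC I or of MSC IV (highest adjusted p = 0.116), and the Atp1b1 call without either MSC I array or MSC IV replicate 1 (0.092). The Cd34 call was lost without any 1 array of MSC I or IV, with the replicate number as a block and with no low-value filter (0.162). Chn2 kept its call in 5 of 16 settings and lost it in 11 (0.195), among them every array left out except MSC I replicate 1.

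Intermediate levels in MSC IV were plain for 3 of these genes. Cdh3 had 5.37 and 5.87 log2 on the MSC I arrays and 9.56 and 9.0 on the MSC IV arrays, against 10.74 to 11.31 (median 10.81) on the arrays of MSC II, III and V. Itm2a had 5.78 and 4.92 in MSC I and 8.90 and 8.23 in MSC IV, against 9.61 to 12.74 (median 12.00) in MSC II, III and V. Epb41l4a had 6.12 and 6.44 in MSC I and 9.45 and 8.94 in MSC IV, against 10.44 to 10.63 (median 10.58) in MSC II, III and V. MSC IV thus expressed all of them well above the low-value level, while MSC I was under it. At the other extreme, the MSC I and MSC IV means lay close to each other for Eya2 (0.04 ± 0.19, adjusted p = 0.867) and Rnf130 (-0.09 ± 0.20, adjusted p = 0.755). With a gap of at least 0.5 log2, 17 of 57 higher members differed, all with MSC I above MSC IV (12.3% of all tested genes were called in that direction). Of the 145 lower members, 9 were called with MSC I above MSC IV and 12 with MSC I below it (8.04% of all tested genes). The genes with MSC IV further from the others included Dkk3 (2.12 ± 0.32, adjusted p = 0.00163), Pcdh19 (2.14 ± 0.23, adjusted p = 0.000385) and Cnn1 (1.75 ± 0.35, adjusted p = 0.00583).

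**Figure D4:**
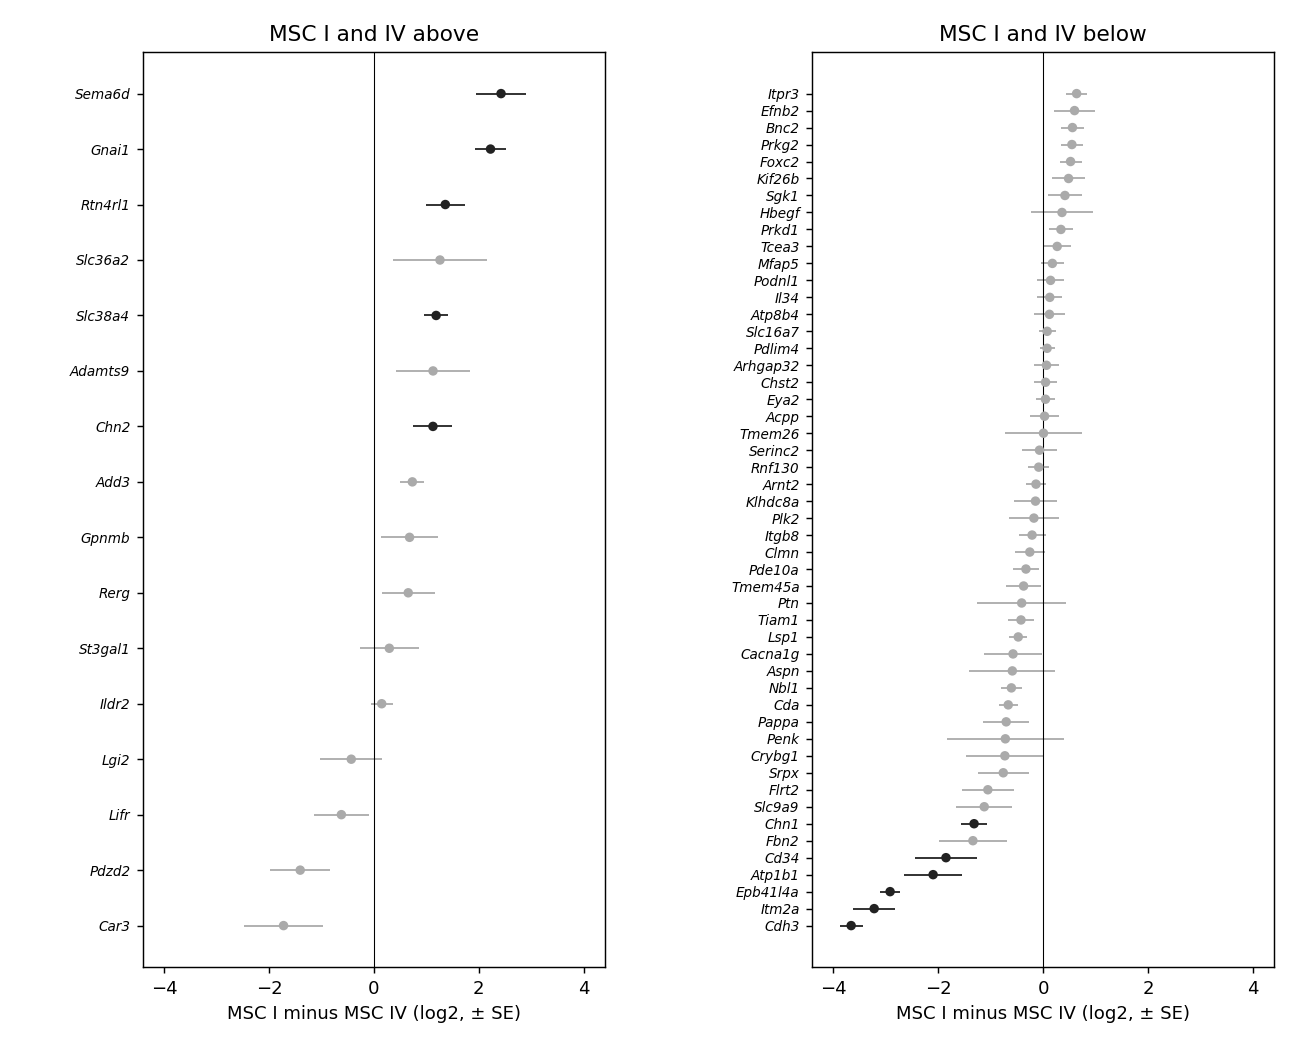
MSC I minus MSC IV in log2 with its SE from the limma fit, for the 16 higher (left) and 50 lower (right) members with a gap of at least 1 log2. Black points passed the test (adjusted p under 0.05 and at least 1 log2): 5 on the left, where MSC I was above MSC IV, and 6 on the right, where it was below.

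The others were not uniform either. In limma's F test over MSC II, III and V with Benjamini-Hochberg adjustment, 718 tested genes (6.54%) differed by at least 1 log2. The count was 422 with the replicate number as a block, 463 without MSC II replicate 1 and 419 without MSC II replicate 2. Among members with a gap of at least 1 log2, 2 of 16 higher and 9 of 50 lower ones did so. The higher ones were Gpnmb (range 2.92 log2, adjusted p = 0.02) and Slc38a4 (range 1.57, adjusted p = 0.00892). Lower ones included Itm2a (range 2.40, adjusted p = 0.0173), Eya2 (range 2.13, adjusted p = 0.00184) and Mfap5 (range 1.94, adjusted p = 0.00429). Eya2 and Rnf130 were highest in MSC II and lowest of the others in MSC V, and Mfap5 was the reverse.

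The rule was also applied to each set of replicate arrays alone. Both sets form the means that chose the members, and the low-value filter used all arrays. The comparison is therefore a description and no independent check of the members. When the rule was applied to the replicate 1 arrays alone, 7.74% of the tested genes were higher and 9.1% lower. Of these, 15 higher and 45 lower genes had a gap of at least 1 log2, and on the replicate 2 arrays 11 and 39 of them lay on the same side. Of all tested genes, 8.43% and 9.8% lay on those sides on the replicate 2 arrays. Without a minimum gap, 275 higher genes met the rule on both sets of arrays, 32.4% of those found on replicate 1 and 29.7% of those found on replicate 2. For lower genes these were 384, 38.5% and 35.7%. Most genes found on either set of arrays alone were thus not found on the other.

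Some genes had further probe sets, which may read other parts of the transcript, in the same RNA. Of 67 further probe sets of higher members that passed the low-value filter, 55 lay on the same side, and of 107 of lower members 83 did (6.11% and 8.4% of all further probe sets lay on those sides). These counts are a description, since a probe set that passed the filter through its high group alone had to differ, and those under it are left out. They count probe sets and not genes. Adamts3, Adgrl2 and Taf1d each gave several, and some of Taf1d had the same mean in every preparation, so they are not independent readings. On 5 further probe sets Adamts9 differed by 1.78 to 2.42 log2, beside 2.11 for the probe set used. Kif26b differed by -1.88 and the cyclic GMP-dependent kinase Prkg2 by -1.09 log2 on the further probe set. Further probe sets under the filter differed by 0.08 log2 for Nkain2 (-1.28 for the probe set used), by -0.12 for Crybg1 (-2.38) and by 0.04 for St3gal1 (1.58). Members with a gap of at least 0.5 log2 were spread over all 20 chromosomes tested, from 1.16% of the tested genes on chromosome 7 to 2.74% on chromosome 10, against 1.84% over all. Of all 202 such members 145 were lower, among them all 15 on chromosome 10, all 9 on chromosome 9, all 9 on chromosome X, all 7 on chromosome 16, all 6 on chromosome 18 and all 5 on chromosome 12. Xist, the RNA that silences the inactive X chromosome in female cells, was no member, with 12.35 ± 0.25 in MSC I and 9.67 ± 0.063 in MSC IV, against 12.29 ± 0.22, 12.52 ± 0.075 and 10.35 ± 0.17 in MSC II, III and V. Its part in the X-linked counts was not tested.

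The promoter motifs marked above for Gnai1, Lgi2, Srpx and Cd34 were counted over all members with a gap of at least 0.5 log2, of which 48 of 57 higher and 106 of 145 lower genes had a promoter in the table, the first listed start being used where there were several. The SP1 motif was found in 68.8% of higher and 53.8% of lower members, and in 61.6% of the tested genes and 32.9% of all 27025 promoters. The AP-1 motif was found in 4.17% and 9.43%, against 3.97% and 6.87%. For CCAAT the shares were 22.9% and 34.9%, against 37.0% and 34.5%. For the E-box they were 10.4% and 3.77%, against 8.66% and 6.05%. TEAD motifs were found in 10.4% and 13.2%, against 10.3% and 12.6%, and TATA boxes in 4.17% and 4.72%, against 6.22% and 13.0%. The CArG box was found in 2.08% and 1.89%, against 1.18% and 1.4%. A match to such short letters is no evidence of binding, and 10 promoters carried the AP-1 motif among the lower members.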

How the data were processed

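Each of the 5 preparations was measured on 2 arrays. The deposited values were log2 expression levels per probe set, normalised by the authors with RMA and Partek per the submitters' processing notes. Their versions are not given in the sources used here. In RMA, background correction and quantile normalisation precede a summary of each probe set. Without detection calls, a low level does not show that a transcript was absent. No value was missing among the 35399 probe sets, and no arrays were identical. Per the platform annotation, 21789 had 1 symbol, 1621 several and 11989 none, and 21698 matched the mouse reference GRCm38.p6. The probe set with the highest mean was used for each of 19938 genes, 999 of which had several.

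Genes with at least 2 arrays above the median of the table (6.55 log2) were tested with limma 3.58.1 (lmFit, eBayes) under R 4.3.3, with 1 mean per preparation and 1 shared estimate of the spread. Two-sided p-values received Benjamini-Hochberg adjustment over the 10971 genes, and calls required an adjusted p under 0.05 and at least 1 log2. Tables and figures were made in Python 3.11.15. The fit was tested on simulated data in which preparations on the same side did not differ, unlike the measured ones. The number of arrays limits the precision.

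The 76 named genes were taken by rule: the 20 members with the widest gaps on each side whose arrays did not overlap, up to 8 members per direction with the largest called difference between MSC I and MSC IV, list genes with a gap of at least 0.5 log2, and the members at the edge of the rule. Not all of them are described. Other named genes, those of the lists with smaller gaps among them, were chosen after their values were seen. The 56 gene lists held 1287 entries, of which 1202 had a probe set with 1 symbol, 12 of them through a synonym. Members, lists and tests were chosen with earlier results of these data known. Alternatives were 2 other filters, probe sets averaged per gene, 2 further scalings, a trended and robust eBayes, a block for the replicate number, the preparation as a random block, each array left out, and stricter or narrower forms of the rule for members.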

Additional observations from a re-analysis of the deposited data

Results flagged for a closer look

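In 80 groups of 4 or 6 arrays, those of the 40 members with the widest gaps, Dixon's test for single distant arrays marked 3, and chance marks about 1 group in 20. All 3 were MSC IV arrays set against the others of MSC I and IV. For Lgi2, MSC IV replicate 2 had 10.46 log2 and the nearest array 9.60. For the transcription factor Klf9, MSC IV replicate 1 had 9.75 and the nearest array 10.63. For Fbn2, MSC IV replicate 1 had 9.36 and the nearest array 7.26. These genes were picked for arrays that did not overlap, so leaving out the array in question could not change their side.

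Among the members with a gap of at least 1 log2, 11 differed between MSC I and MSC IV in limma's test, although both lay on the same side of the others. On the higher side, MSC I minus MSC IV was 2.43 ± 0.48 (SE) for Sema6d, 2.22 ± 0.29 for Gnai1, 1.36 ± 0.37 for Rtn4rl1, 1.19 ± 0.23 for Slc38a4 and 1.13 ± 0.37 for Chn2. On the lower side it was -3.66 ± 0.22 for Cdh3, -3.22 ± 0.40 for Itm2a, -2.92 ± 0.19 for Epb41l4a, -2.10 ± 0.55 for Atp1b1, -1.85 ± 0.59 for Cd34 and -1.32 ± 0.25 for Chn1. Both MSC I arrays were above both MSC IV arrays for the first set and below them for the second.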

How the results depend on the processing

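The 40 leading genes stayed on their side in every setting in which they were tested. They were picked for arrays that did not overlap, so leaving out an array or changing the variance model could not move them. Over the 76 named genes, 1264 of 1265 values under 17 settings differed from the reported difference by less than the spread between replicates, none reversed, and St3gal1 moved to 0.81 log2 with the mean of its probe sets. Without a low-value filter there were 1778 higher and 1626 lower members. At the 75th percentile there were 474 and 603, with 29 lower members at a gap of at least 1 log2, 370 calls for MSC I and IV against the others, 1362 for MSC I minus MSC IV and 370 among MSC II, III and V. That filter tests fewer genes. Members with all 4 arrays on one side of the other 6 numbered 223 higher and 329 lower, those with a gap of at least 0.5 log2 numbered 57 and 145, and those with at least 1 log2 numbered 16 and 50. With the preparation as a random block (estimated correlation 0.70), 7 of 666 calls were made for MSC I and IV against the others. In that fit 581 of 10971 tested genes had an unadjusted p under 0.05, near the share that this cutoff gives by chance. The replicate numbers did not pair the arrays in the same way throughout, since deviations of same-numbered arrays correlated at -0.55 to 0.20 over 10 pairs. A pairing with the numbers crossed between preparations was not tested. With the replicate block, calls numbered 422 among MSC II, III and V, 623 for MSC I and IV against the others and 2134 for MSC I minus MSC IV.

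Leaving out 1 array at a time gave 749 to 842 higher and 890 to 1075 lower members, 13 to 26 and 44 to 61 at a gap of at least 1 log2, and 8 to 14 of these with MSC I different from MSC IV. Calls ran from 502 to 681 for MSC I and IV against the others, from 1746 to 2253 for MSC I minus MSC IV and from 419 to 692 among MSC II, III and V. The extremes were 26 higher members without MSC IV replicate 1, and 463 and 419 calls without replicates 1 and 2 of MSC II. The cause of these shifts was not tested. The remaining array of a preparation was assumed to vary like the others. Arrays centred on their medians gave 624 higher and 1278 lower members, and a further quantile normalization 664 and 1203, beside 807 and 1014. These scalings and the trended, robust eBayes moved no count by more than 1.5 times. Signals near the low-value level limit the differences, so wide gaps against a group under that level are compressed.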

Other observations

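The rule was also applied to the 7276 probe sets above the low-value level that had no gene symbol or several in the annotation used. Both MSC I and MSC IV lay above the others for 1007 of the 7276 and below for 317. Of the 10971 tested named genes, 7.36% lay above and 9.24% below. The split of the named genes depended on the scaling, and this was not tested for the probe sets without a single symbol. Among the latter the widest gap on the higher side was 0.87 log2. On the lower side it was 4.08 log2, wider than the 3.59 log2 of Srpx, the widest gap among the lower named genes, and this was the only such probe set with a gap of at least 1 log2 on either side.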
